A study of Caenorhabditis elegans with 9 samples.

Results

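The cassette exons of *smg-2* and *smg-1* mutant worms were set directly against each other, library by library. The exons compared were those present in both mutants' tables whose *smg-2* values were not a repeat of the *smg-1* values, which gave 498 of the 786 cassette exons of the series, in 463 genes. The *smg-2* table held 620 exons, and the 122 that carried the *smg-1* values in all 3 replicates were left out. The groups were *smg-2* (CB4043) KO, *smg-1* (TR1331) KO and wild-type worms, all given as strain N2 by the labels, and each mutant was represented by a single allele strain. Poly(A) RNA came from whole synchronized L4 larvae, with 3 biological replicates per genotype and 9 libraries in all. Each value is percent spliced in (PSI), the share of an event's junction reads that did not skip the exon. The tables held exon usage and no gene level, and no exon of *smg-1* or *smg-2* was among the 498, so neither loss could be checked in these values.

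Nonsense-mediated mRNA decay (NMD) removes transcripts on which the ribosome meets a stop codon too early, and it acts on faulty transcripts as well as on normal isoforms whose splicing introduces a stop. SMG-2, the worm homolog of UPF1, is an RNA helicase at the center of the pathway, and SMG-1 is the kinase that phosphorylates it. Worms survive the loss of either gene, and an isoform that NMD would remove can then be seen in the RNA. A poison exon brings a premature stop when it is included, whereas an essential exon leaves one when it is skipped. A triplet exon has a length divisible by 3 and keeps the reading frame whether it is used or not.

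Examples picked from the exons compared are given in the sense of the transcript, from the WBcel235 genome, with the upstream annotated reading frame. Of the exons printed, only those of *sav-1* and *ckc-1* passed an adjusted test, that of edgeR. The first set are poison exons picked for a low mean PSI in wild-type and a higher mean PSI in *smg-2* than in *smg-1*. Of all 52 poison exons, 37 had the higher mean in *smg-2* and 15 the lower. Capitals mark the first in-frame stop codon.
sav-1: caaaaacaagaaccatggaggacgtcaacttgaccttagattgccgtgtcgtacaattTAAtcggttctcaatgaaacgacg
sma-2: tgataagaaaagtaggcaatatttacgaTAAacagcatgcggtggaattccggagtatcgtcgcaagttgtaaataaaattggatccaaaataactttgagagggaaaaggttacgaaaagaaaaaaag
rbm-39: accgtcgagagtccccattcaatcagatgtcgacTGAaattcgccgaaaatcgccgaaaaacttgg
rps-22: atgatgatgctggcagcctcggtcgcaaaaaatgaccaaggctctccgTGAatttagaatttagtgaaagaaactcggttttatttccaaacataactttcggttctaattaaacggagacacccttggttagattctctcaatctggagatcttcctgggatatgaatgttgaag
The *sav-1* exon is 82 nt long (chrX:2285570-2285651, minus strand) and its stop begins at base 59. The *sma-2* exon is 129 nt long (chrIII:8754856-8754984, plus strand) with a stop from base 29. The *rbm-39* exon is 66 nt long (chrIV:1013075-1013140, plus strand) with a stop from base 35. The *rps-22* exon is 176 nt long (chrIII:1950821-1950996, plus strand) with a stop from base 49. The *sma-2* and *rbm-39* exons are triplet, so their in-frame stop and not a shift of frame ends the protein early. The *sav-1* and *sma-2* exons, and the *ckc-1* exon, are not in the annotation, and their frames were taken from the annotated exons on either side.

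The second set are exons with no premature stop in either isoform and large differences between the mutants, shown without capitals.
ckc-1: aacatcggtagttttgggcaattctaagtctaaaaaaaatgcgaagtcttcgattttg
slo-1: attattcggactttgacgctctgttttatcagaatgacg
egl-2: tctccgaccgttctacttaatcag
unc-58: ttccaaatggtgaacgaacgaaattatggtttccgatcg
The *ckc-1* exon (58 nt, chrX:3578546-3578603, plus strand) is the 6th of 7 exons, and the predicted protein has 353 amino acids with it and 342 without it, with another C-terminus. The other 3 are triplet exons of potassium channels, at chrV:18502068-18502106 on the plus strand (*slo-1*, 39 nt), chrV:1294497-1294520 on the minus strand (*egl-2*, 24 nt) and chrX:10106683-10106721 on the minus strand (*unc-58*, 39 nt). They add 13, 8 and 13 amino acids, in that order.

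Junction reads differed between the mutants. Over the 498 exons the *smg-2* libraries held 76470, 123213 and 47438 junction reads, with a median of 68, 105.5 and 38.5 per exon. The *smg-1* libraries held 277211, 171336 and 131684, with a median of 241, 153 and 115. Every *smg-2* library was thus shallower than every *smg-1* library. The SD of PSI between replicates had a median of 6.38 points in *smg-2* and 3.20 points in *smg-1*, and 390 of the 498 exons had the larger SD in *smg-2*. Counting error alone would give a median SD of 5.22 points in *smg-2* and 3.06 points in *smg-1*. Mean PSI ran from 5.39% to 94.6% in *smg-2* and from 5.40% to 94.98% in *smg-1*.

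**Figure D1:**
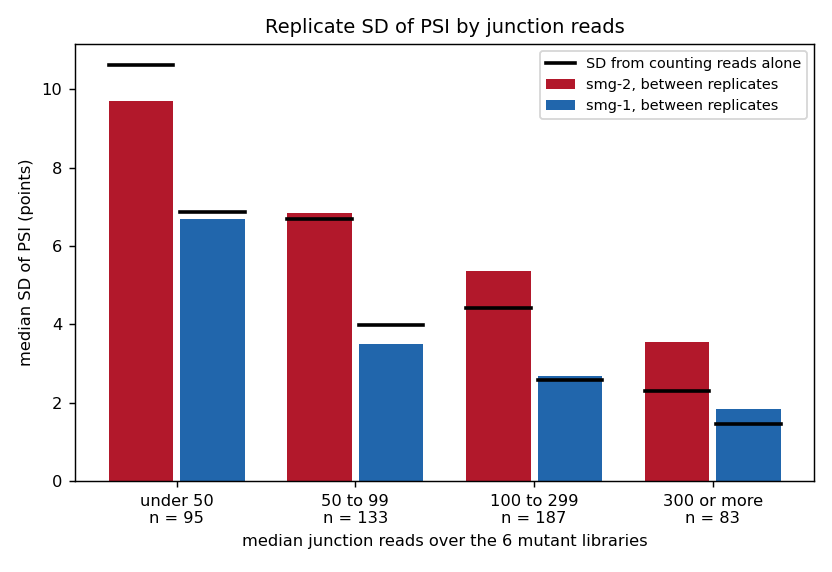
Median SD of PSI between 3 replicates (bars, percentage points) in *smg-2* (red) and *smg-1* (blue), by the median junction reads of the exon over the 6 mutant libraries, with the SD expected from counting reads alone (black lines). In the 83 exons with 300 or more reads the SD was 3.55 points in *smg-2* and 1.84 points in *smg-1*.

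Inclusion was close in *smg-2* and *smg-1* for most exons, and no exon passed the test of the difference. Mean PSI in *smg-2* minus that in *smg-1* had a median of -0.06 points over the 498 exons, a median size of 3.88 points and a range of -33.3 to 28.6 points. In 295 exons (59.2%) the means lay within 5 points of each other, in 74 (14.9%) they differed by over 10 points, and in 12 by over 20 points. limma on the logit of PSI called 0 of 498 exons (0.0%) at an adjusted p under 0.05 with a difference over 10 points, and its smallest adjusted p was 0.258. An unadjusted p under 0.05 was reached by 42 exons (8.43%), of which 21 were higher (4.22%) and 21 lower (4.22%) in *smg-2*. The 3 *smg-2* values lay all above or all below the 3 *smg-1* values in 86 exons (17.3%), above in 46 (9.24%) and below in 40 (8.03%). edgeR's quasi-likelihood test on inclusion and skipping reads, in which deeper libraries count for more, called 3 of the 482 exons with a known read total in every mutant library (0.622%), and 45 had an unadjusted p under 0.05. limma with libraries weighted by junction reads also called 3.

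**Figure D2:**
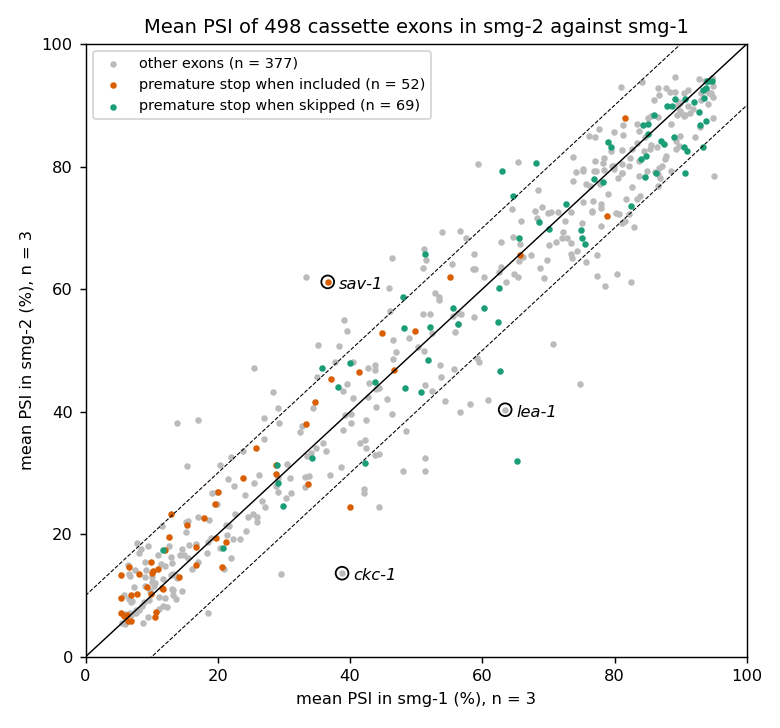
Mean PSI (%) of each of the 498 exons in *smg-2* (vertical axis) against *smg-1* (horizontal axis), 3 libraries each, with exons that bring a premature stop when included in orange and when skipped in green. The solid line marks equal means and the dashed lines 10 points, and the circled exons of *ckc-1*, *lea-1* and *sav-1* are the 3 that edgeR called.

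The absence of a call does not show that the mutants act alike, so the interval of each difference was examined. The 95% interval (limma on PSI in points) lay wholly within 10 points of 0 in 94 of 498 exons (18.9%). Among exons with a median under 50 junction reads 0 of 95 were bounded in this way, against 14 of 133 with 50 to 99 reads, 46 of 187 with 100 to 299 reads and 34 of 83 with 300 or more. The size of the difference had a median of 7.97 points in the shallowest of these groups and 2.48 points in the deepest. Of the 74 exons that differed by over 10 points, 40 came from the shallowest group and 3 from the deepest.

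The 3 exons called by edgeR each differed by more than the spread between replicates. In *ckc-1*, a member of the choline kinase family, PSI was 18.0%, 12.2% and 10.7% in *smg-2* and 36.04%, 38.6% and 41.7% in *smg-1*, against 9.28%, 0% and 6.29% in wild-type. The groups did not overlap, with *smg-2* close to wild-type and *smg-1* well above both. The difference was -25.2 points (95% interval -33.1 to -17.2), with an adjusted p of 0.258 in limma and 0.0021 in edgeR. With inclusion reads halved, since 2 junctions support inclusion and 1 skipping, it was -16.7 points. Its reads numbered 50, 131 and 56 in *smg-2* and 197, 114 and 139 in *smg-1*.

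The *sav-1* exon, whose gene encodes a homolog of the Hippo pathway scaffold Salvador, ran the other way. Its PSI was 52.7%, 67.2% and 63.6% in *smg-2* and 38.4%, 38.1% and 33.5% in *smg-1*, against 7.29%, 21.4% and 2.13% in wild-type. Both mutants were above every wild-type library, and *smg-2* was above *smg-1* in every library. The difference was 24.6 points (14.2 to 34.9), with an adjusted p of 0.37 in limma and 0.0147 in edgeR. Its reads numbered 74, 128 and 44 in *smg-2* and 532, 339 and 239 in *smg-1*. It was thus not among the exons with at least 50 junction reads in every mutant library. Inclusion would end the protein after 162 amino acids in place of 389, at the stop shown above, 675 nt before the last junction.

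The third exon belongs to *lea-1*, which encodes a late embryogenesis abundant protein known for its role in desiccation tolerance. Its 372 nt exon (chrV:10022677-10023048, exon 7 of 12) is triplet and keeps the frame. PSI was 47.0%, 43.0% and 30.99% in *smg-2* and 67.9%, 67.6% and 54.9% in *smg-1*, against 59.4%, 68.6% and 57.1% in wild-type. All *smg-2* libraries lay below every *smg-1* and wild-type library, and the *smg-1* and wild-type ranges overlapped. The difference was -23.1 points (-36.3 to -9.97), with an adjusted p of 0.379 in limma and 0.0021 in edgeR, on 497 to 1934 reads per library.

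Among the 20 exons with the largest differences, of those with an unadjusted limma p under 0.05 and no overlap, 12 were lower and 8 higher in *smg-2*. They were chosen for that separation, so their values are a description. The remaining 17 had edgeR adjusted p-values of 0.10 to 0.64, and 15 of all 20 had a median of under 100 junction reads. Poison exons were 2 of the 20 (*sav-1* and *sad-1*) and essential exons another 2 (*B0244.10* and *snf-6*). The other 16 carried no predicted premature stop in either isoform.

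**Figure D3:**
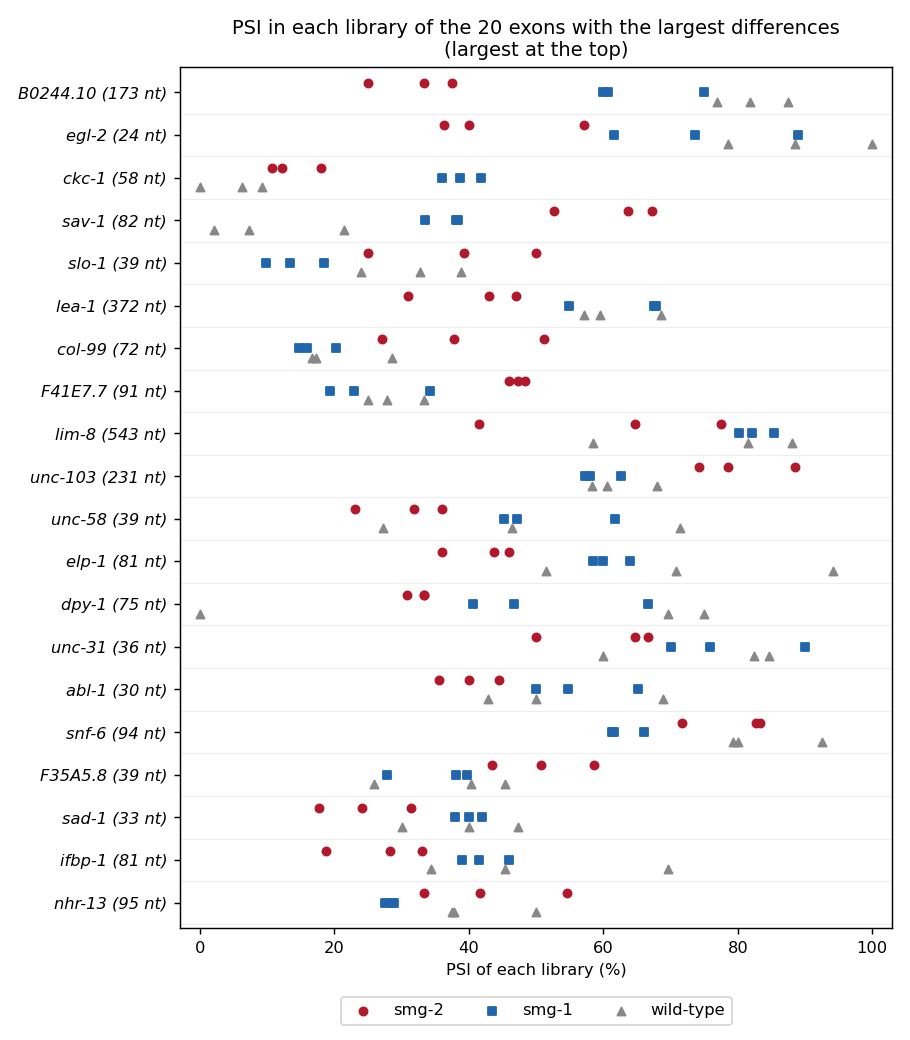
PSI (%) in each *smg-2* (red circles), *smg-1* (blue squares) and wild-type (grey triangles) library for the 20 exons with the largest differences, in order of size. No *smg-2* value overlaps the *smg-1* values in any row, as the choice of these exons required, and wild-type is seen on either side of both.

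The largest difference was in the 173 nt exon of *B0244.10*. PSI was 37.5%, 33.3% and 25% in *smg-2* and 60.7%, 75% and 60% in *smg-1*, a difference of -33.3 points (-46.0 to -20.6). It rested on 8 to 28 reads per library, and its adjusted p was 0.37 in limma and 0.25 in edgeR. Skipping it leaves a premature stop after 97 in place of 368 amino acids, and wild-type included it at 76.9%, 87.5% and 81.8%.

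Potassium channels supplied 4 of the 20. In *egl-2*, which encodes an EAG-type channel, PSI was 36.4%, 40% and 57.1% in *smg-2* and 73.7%, 61.5% and 88.9% in *smg-1*, on 7 to 19 reads. In *slo-1*, the calcium-activated BK channel, PSI was 39.3%, 25% and 50% in *smg-2* and 9.76%, 18.4% and 13.3% in *smg-1*, while wild-type gave 32.8%, 38.9% and 23.9%. Wild-type was thus nearer to *smg-2* in *slo-1*, whereas in *egl-2* it was nearer to *smg-1*, at 88.5%, 100% and 78.6%. The exon of the ERG-type channel gene *unc-103* had a mean PSI of 80.4% ± 7.31 in *smg-2* and 59.3% ± 2.94 in *smg-1* (SD, n = 3 each). That of *unc-58*, a two-pore channel, had 30.3% ± 6.59 in *smg-2* and 51.4% ± 9.06 in *smg-1*. No common direction was seen, and 2 of these 4 exons were higher and 2 lower in *smg-2*. Over all 11 potassium channel exons, 3 lay wholly above and 2 wholly below *smg-1* (27.3% and 18.2%, beside 9.24% and 8.03% of all exons), and the median difference was -0.12 points. These exons had a median of 36.5 junction reads, beside 110 over all exons.

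The *unc-31* exon, whose gene is needed for release of dense-core vesicles, had a mean PSI of 60.5% ± 9.11 in *smg-2* and 78.6% ± 10.3 in *smg-1*. That of *sad-1*, a kinase of neuronal polarity, had 24.4% ± 6.89 in *smg-2* and 39.99% ± 2.02 in *smg-1*. In *snf-6*, which encodes an acetylcholine transporter, the values were 79.3% ± 6.56 in *smg-2* and 63.0% ± 2.68 in *smg-1*. The tyrosine kinase gene *abl-1* and the microtubule-associated gene *elp-1* had lower inclusion in *smg-2*, at 39.97% ± 4.48 and 41.9% ± 5.23 against 56.7% ± 7.78 and 60.8% ± 2.82 in *smg-1*. In the muscle gene *lim-8* the *smg-2* libraries spread from 41.5% to 77.5%, against 80.2% to 85.4% in *smg-1*, and the wild-type libraries spread from 58.5% to 88.0%. The difference was -21.3 points, and -11.4 points without *smg-2* replicate 3.

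The transmembrane collagen gene *col-99* had a 72 nt triplet exon with PSI of 37.7%, 27.1% and 51.2% in *smg-2* and 20.2%, 15.96% and 14.7% in *smg-1*. The other *col-99* exon in the tables, of 45 nt, had means of 61.8% in *smg-2* and 69.4% in *smg-1* and overlapping groups. The cuticle gene *dpy-1* had a mean of 32.5% ± 1.48 in *smg-2* and 51.3% ± 13.6 in *smg-1*, on a median of 19.5 reads, and its wild-type libraries ran from 0% to 75%. The difference was -18.8 points, and -11.2 points without *smg-1* replicate 3. *F41E7.7* gave 47.2% ± 1.17 in *smg-2* and 25.5% ± 7.72 in *smg-1*, and *F35A5.8* gave 50.9% ± 7.57 in *smg-2* and 35.2% ± 6.48 in *smg-1*. *ifbp-1* gave 26.7% ± 7.23 in *smg-2* and 42.2% ± 3.55 in *smg-1*. The nuclear hormone receptor gene *nhr-13* closed the list with 43.2% ± 10.7 in *smg-2* and 28.4% ± 0.68 in *smg-1* (SD, n = 3 each throughout), a difference of 14.8 points, and of 9.15 points without *smg-2* replicate 1.

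Of the 42 exons with an unadjusted limma p under 0.05, the other 22 differed by 4.30 to 12.5 points. They were singled out after their values were seen. The poison exon of *sma-2*, a SMAD of the pathway that sets body size, was at 19.7%, 19.4% and 30.8% in *smg-2* and 10.9%, 15.3% and 12.7% in *smg-1*, and at 0% in each wild-type library. The 274 nt essential exon of *smgl-2*, the homolog of the NMD-associated helicase DHX34, was included at 80.6%, 87.9% and 79.2% in *smg-2* and at 90.8%, 90.6% and 91.3% in *smg-1*. In the same direction, the essential exon of the Lon protease gene *lonp-2* was at 88.9%, 77.9% and 82.9% in *smg-2* and at 91.8%, 95.3% and 92.9% in *smg-1*. All 3 exons were further from wild-type in *smg-2*, with limma adjusted p-values of 0.379 to 0.418. Small but even separations were seen in the 18 nt microexon of *dpy-23*, at 15.4%, 13.3% and 14.0% in *smg-2* and 8.06%, 6.91% and 7.56% in *smg-1*, an adaptor subunit gene of clathrin coats. The single exon of *smg-6*, the NMD endonuclease gene, had overlapping groups, with means of 64.1% in *smg-2* and 55.5% in *smg-1*.

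Next, the exons were divided by the stop codons that the annotation predicts, a division that does not use the readout. Which exons could be compared does depend on it. Their mean PSI ran from 5.39% to 94.6% in *smg-2* and from 5.40% to 94.98% in *smg-1*, while wild-type means went down to 0%. An exon hardly used in wild-type was thus present only where the mutants included it, and its distance from wild-type is a description. Poison exons numbered 52 and essential exons 69, 346 exons gave no premature stop in either isoform, and 3 gave one in both. A further 28 were left without a class, 20 of which could not be placed in a coding transcript. Mean PSI was higher in *smg-2* for 37 of the 52 poison exons, beside 49.0% of all exons, with a median difference of 3.29 points. The groups did not overlap in 10 of them, 9 of which were higher in *smg-2* (17.3% of the 52, beside 9.24% of all exons) and 1 lower (1.92%, beside 8.03%). For essential exons the median difference was -0.89 points, and mean PSI was lower in *smg-2* in 41 of 69, beside 51.0% of all exons. Here 12 exons lay wholly lower in *smg-2* (17.4%) and 5 wholly higher (7.25%). Exons with no predicted premature stop had a median difference of -0.19 points, 31 wholly higher and 25 wholly lower.

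**Figure D4:**
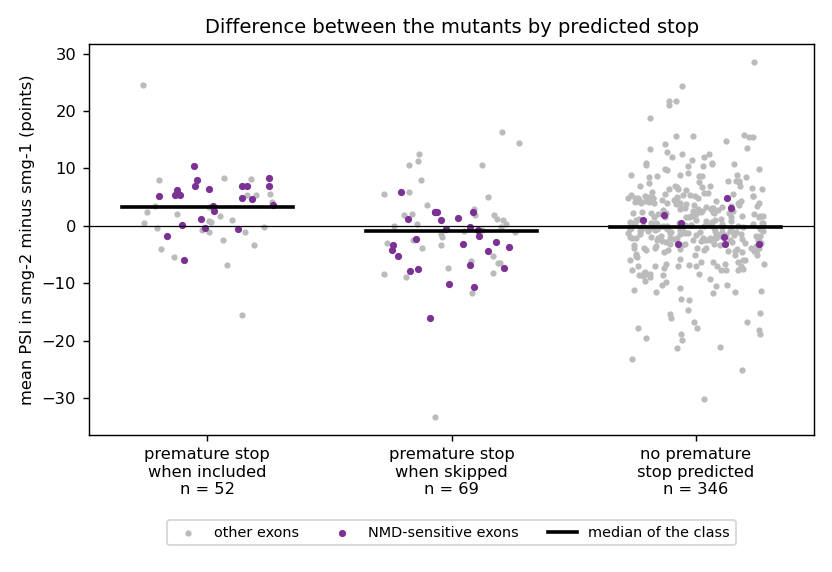
Mean PSI in *smg-2* minus that in *smg-1* (percentage points) of each exon, by whether the annotation predicts a premature stop on inclusion (n = 52), on skipping (n = 69) or in neither isoform (n = 346). Purple marks NMD-sensitive exons, those that changed from wild-type in both mutants, and black bars mark the class medians of 3.29, -0.89 and -0.19 points.

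The poison exons showed this in every library. Over the 52 poison exons the median PSI was 17.4%, 20.1% and 17.8% in the *smg-2* libraries and 15.8%, 14.8% and 16.9% in the *smg-1* libraries, against 3.23%, 2.27% and 3.48% in wild-type. Each *smg-2* library was above each *smg-1* library, by little beside the distance of both from wild-type. Over the 69 essential exons the medians were 73.0%, 77.1% and 76.5% in *smg-2* and 78.1%, 77.2% and 74.7% in *smg-1*, against 92.9%, 93.3% and 93.7% in wild-type, and the mutants overlapped. Without regard to the predicted stop, the median difference was -0.12 points over 325 triplet exons and -0.02 points over 173 non-triplet exons. These medians pool classes of opposite direction. Non-triplet poison exons (n = 30) had a median of 3.91 points and non-triplet essential exons (n = 68) one of -0.83 points. Triplet poison exons (n = 22) had 1.47 points, while 292 of the triplet exons had no predicted premature stop in either isoform. By length, the median ran from 1.58 points in the 44 exons of up to 30 nt to -1.19 points in the 186 exons over 120 nt.

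The extent of the response to loss of NMD was then compared over the NMD-sensitive exons. These were the 63 exons (12.7% of 498) whose mean over both mutants differed from wild-type by more than 10 points and that passed limma against wild-type in both. The comparisons with wild-type share the same 3 wild-type libraries, and what follows is a description without a test, since the exons were chosen on these values. Of the 63 exons 48 lay further from wild-type in *smg-2* than in *smg-1*, beside 298 of all 498 (59.8%), and the median shift was 3.30 points. This measure leans to the mutant whose replicates spread more, which was *smg-2*, and the extent of that was not tested. The median distance from wild-type over the 63 exons was 25.5, 23.8 and 27.1 points in the *smg-2* libraries and 21.0, 19.3 and 20.8 points in the *smg-1* libraries, and the libraries of the mutants did not overlap. With the exons and their direction taken from *smg-1* against wild-type alone, the shift was 1.88 points over 69 exons, 44 of them further from wild-type in *smg-2*. With them taken from *smg-2* alone it was 3.79 points over 75 exons, 60 of them further. With class and direction taken from the annotation, the shift was 2.03 points over the 121 poison and essential exons among the 498. Their presence among the 498 still depends on the mutant values. Here 78 exons differed in the predicted direction, with *smg-2* higher in poison or lower in essential exons, whatever their wild-type value. The part of read depth in this shift was not tested.

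Poison and essential exons contributed in opposite directions of PSI. Among the NMD-sensitive exons, 19 of 23 poison exons had higher mean PSI in *smg-2* with a median difference of 5.12 points, and 19 of 27 essential exons had lower mean PSI in *smg-2* with a median of -2.92 points. Among the exons not so chosen, 18 of 29 poison exons had higher mean PSI in *smg-2*, with a median difference of 0.96 points. Of the 42 essential exons not so chosen, 22 had lower mean PSI in *smg-2*, with a median of -0.11 points. No single exon of the 63 was called by limma or edgeR in the direct contrast, and none differed by over 20 points. The choice favours this, since an exon had to pass against wild-type in both mutants. The exons of *ckc-1* (limma adjusted p 0.259 in *smg-2* and 0.021 in *smg-1*) and *sav-1* (0.016 and 0.068) passed in 1 mutant only and were left out. The difference stayed within an interval of 10 points either way in 13 of the 63 (20.6%).

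In the NMD-sensitive exons with the largest changes, differences between the mutants ran from -10.6 to 6.89 points over 12 exons. In *fubl-1*, an RNA-binding KH-domain gene with an essential exon of 52 nt (chrV:10238292-10238343), PSI was 18.8%, 16.2% and 18.3% in *smg-2* and 19.9%, 22.3% and 20.4% in *smg-1*, against 83.9%, 84.1% and 89.6% in wild-type. The mutants did not overlap, and their difference was -3.10 points (-9.52 to 3.33), small beside changes of -68.1 points in *smg-2* and -65.0 points in *smg-1* from wild-type. Its paralog *fubl-3* differed by 2.42 points (-7.01 to 11.8), with means of 31.3% ± 5.37 in *smg-2* and 28.9% ± 4.26 in *smg-1* (SD, n = 3 each). The essential exon of *sfa-1*, the branch point binding factor, had means of 44.8% ± 4.89 in *smg-2* and 43.7% ± 3.73 in *smg-1*, and its interval of -7.82 to 9.94 points lay within 10 points of 0.

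The poison exons of the splicing factor genes *rbm-39*, *rsp-4* and *uaf-1* had higher mean PSI in *smg-2*, as did 37 of all 52 poison exons. None of them passed the test. The exon of *rbm-39*, a splicing factor related to U2AF, was at 60.3%, 58.2% and 67.6% in *smg-2* and 54.2%, 54.3% and 56.9% in *smg-1*, against 2.83%, 3.36% and 3.77% in wild-type. That of the SR protein gene *rsp-4* had 23.4%, 22.9% and 28.5% in *smg-2* and 20.9%, 18.8% and 19.1% in *smg-1*. Both exons were without overlap, with differences of 6.89 points (-1.25 to 15.0) and 5.32 points (-1.70 to 12.3). In *uaf-1*, which encodes the large U2AF subunit, the means were 10.3% in *smg-2* and 9.85% in *smg-1*, and the groups overlapped. In *tiar-1*, a TIA-family RNA-binding protein gene, the poison exon of 64 nt had means of 13.6% ± 2.95 in *smg-2* and 10.1% ± 1.43 in *smg-1*.

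The ribosomal protein gene *rps-22* was the deepest of these, with 12723 to 63487 junction reads per library. Its poison exon was at 45.2%, 50.5% and 43.8% in *smg-2* and 41.3%, 42.2% and 40.7% in *smg-1*, against 0.99%, 0.89% and 0.89% in wild-type. The groups did not overlap, and the difference was 5.12 points (-2.08 to 12.3), with an adjusted p of 0.755 in limma and 0.348 in edgeR. The spread of the *smg-2* replicates here was 3.55 points at a depth where counting error is small.

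RNA-binding splicing regulators gave both directions. Of 13 such exons 2 lay wholly higher and 2 wholly lower in *smg-2* (15.4% each, beside 9.24% and 8.03% of all exons), 0 had an unadjusted limma p under 0.05 (beside 8.43%), and the median difference was 1.81 points, beside -0.06 over all exons. The essential exon of *hrpr-1*, an hnRNP R homolog, had 52.5%, 54.0% and 57.1% in *smg-2* and 61.8%, 60.9% and 64.5% in *smg-1*, against 95.5%, 96.6% and 96.5% in wild-type. Its difference of -7.84 points had an interval of -14.7 to -0.97 points, while its adjusted p was 0.645 in limma on the logit. The RBFOX gene *asd-1* had means of 43.2% ± 6.83 in *smg-2* and 50.8% ± 2.92 in *smg-1*, and the CELF gene *etr-1* had 43.9% ± 8.43 in *smg-2* and 48.3% ± 2.46 in *smg-1*.

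Among the 12 largest changes from wild-type were also genes outside RNA binding. The poison exon of *W01B6.3* had means of 87.9% ± 10.5 in *smg-2* and 81.5% ± 8.64 in *smg-1*, where the wild-type libraries with a value had 8.33% and 7.14%. In *Y46E12BL.2* the means were 31.7% ± 7.75 in *smg-2* and 42.3% ± 2.09 in *smg-1*, without overlap and with a difference of -10.6 points (-21.0 to -0.22). *ilkp-1* gave 28.4% ± 5.38 in *smg-2* and 29.0% ± 6.37 in *smg-1*, and *ddo-1* gave 40.8% ± 13.7 in *smg-2* and 44.0% ± 3.45 in *smg-1*. The transthyretin-like gene *ttr-11* had 90.9% ± 9.09 in *smg-2* and 86.0% ± 6.28 in *smg-1*. In *cbl-1*, which encodes a cystathionine lyase, the values were 48.5% ± 2.60 in *smg-2* and 51.8% ± 2.41 in *smg-1* (SD, n = 3 each).

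**Figure D5:**
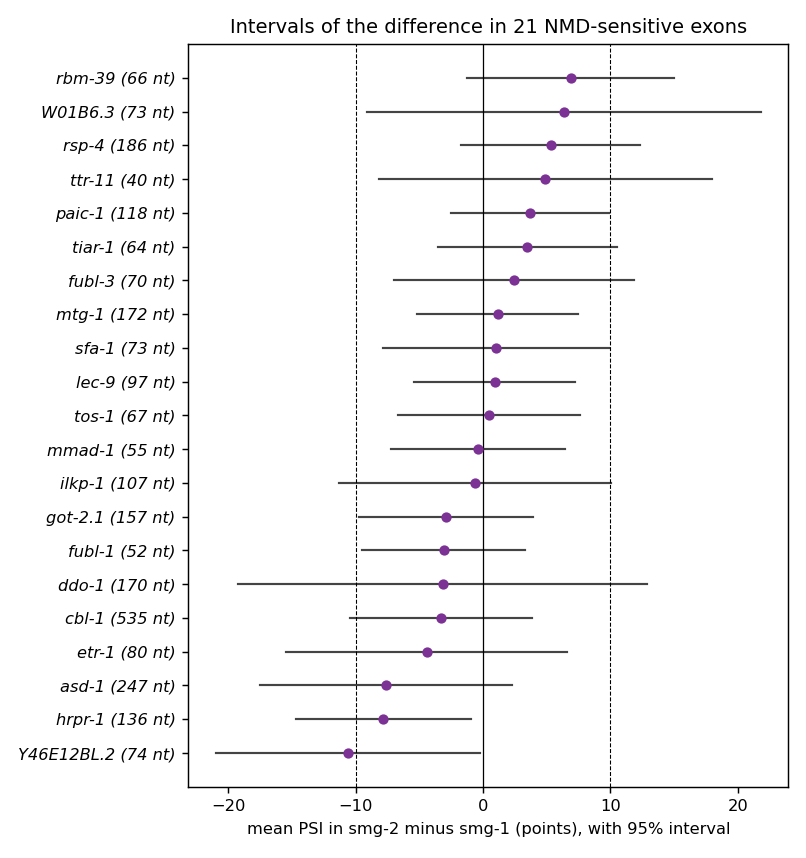
Mean PSI in *smg-2* minus that in *smg-1* (points, percentage points of PSI) with its 95% interval for 21 NMD-sensitive exons, those with the largest changes from wild-type and those with the narrowest intervals. The dashed lines mark 10 points, and only *hrpr-1* and *Y46E12BL.2* of these 21 have an interval that leaves out 0.

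Among the NMD-sensitive exons, those with the narrowest intervals were examined next. The poison exon of the purine synthesis gene *paic-1* was at 13.5%, 13.8% and 14.5% in *smg-2* and 11.0%, 10.4% and 9.31% in *smg-1*, a difference of 3.70 points (-2.51 to 9.91) between groups that did not overlap. The essential exon of *mtg-1*, a mitochondrial GTPase gene, was at 73.0%, 74.3% and 74.3% in *smg-2* and 73.0%, 71.2% and 73.9% in *smg-1*, a difference of 1.16 points (-5.17 to 7.49). The galectin gene *lec-9* differed by 0.93 points (-5.40 to 7.25), *mmad-1* by -0.39 points (-7.26 to 6.47) and *tos-1*, a gene long used as a splicing readout, by 0.49 points (-6.66 to 7.64). In *got-2.1*, which encodes an aspartate aminotransferase, the difference was -2.92 points (-9.74 to 3.91), again without overlap. Each of these 6 exons changed from wild-type in both mutants and had a difference between them bounded within 10 points.

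Other exons of genes taken from the study and its source data did not pass the test either. *aqp-2*, an aquaporin gene, had means of 54.3% in *smg-2* and 56.4% in *smg-1*, *dhhc-4*, a palmitoyl transferase gene, 63.3% in *smg-2* and 58.5% in *smg-1*, and *zip-3*, a bZIP factor gene, 89.9% in *smg-2* and 87.9% in *smg-1*. The nuclear hormone receptor genes *nhr-79* and *nhr-195* were both higher in the mean in *smg-2*, at 75.1% ± 7.71 and 58.7% ± 8.52 against 64.6% ± 6.17 and 48.0% ± 8.57 in *smg-1*, with overlapping groups. Over 16 transcription factor exons 3 lay wholly higher in *smg-2* (*sma-2*, *egl-13* and *nhr-13*) and 0 wholly lower (18.75% and 0%, beside 9.24% and 8.03% of all exons), with a median difference of 2.26 points. Over 21 kinase and phosphatase exons 4 lay wholly lower (*ckc-1*, *wnk-1*, *abl-1* and *sad-1*) and 0 wholly higher (19.05% and 0%, beside 8.03% and 9.24% of all exons), with a median of -2.48 points.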

How the data were processed

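The deposited usage values are the fraction of an event's junction reads on each junction, made by the authors with STAR 2.5.3a and JUM 2.0.2 at a minimum of 5 reads for an event, and PSI is the fraction that does not skip the exon. The deposited read count values are those of the skipping junction. The deposited p-value columns and PSI change score hold the authors' own comparisons and were not used.

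Count labels of wild-type and mutant were found exchanged. Counts labelled *smg-2* and *smg-1* were equal in 100% of exons, while wild-type usage was the same in both tables. Count over usage, rounded to a whole total of junction reads, gave the usage back to within 5.1e-05 in 2971 of 2971 mutant values after the exchange, against 491 as labelled. Usage labels were kept.

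PSI was limited to 1-99%, turned to its logit and tested with limma 3.58.1 (R 4.3.3) on the 6 mutant libraries, with Benjamini-Hochberg adjustment over 498 exons. Intervals came from limma on PSI in points, which gives both mutants 1 residual variance. edgeR 4.0.16 on reads was an alternative. Both were also run on simulated libraries, in which the spread beyond counting error was set equal in both mutants. In the data, the exons with 300 or more reads had a median SD of 3.55 points in *smg-2* and 1.84 in *smg-1*. Counting error alone would give 2.30 and 1.47 points there. The simulation thus cannot show how either test behaves at the unequal spread of these data, and no conclusion is drawn from it. A stop over 50 nt before the last junction was taken as premature (Ensembl release 115, WBcel235). The annotation holds 429 of the exons, and its gene names were used, which changed the files' name for 42. Deviations of same-numbered replicates of the mutants had small positive correlations (0.131, 0.11 and 0.101), and pairs of different numbers ran from -0.187 to 0.114. Whether the replicates were paired is not settled by these values, and the number was also fitted as a block.

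Exons named are the 20 largest differences with an unadjusted p under 0.05 and no overlap, those of genes taken from the study and its source data, and, among NMD-sensitive exons, the 12 largest changes from wild-type and the 10 narrowest intervals, with members of gene lists. Exons and lists were chosen with earlier results of these data known, and lists were trimmed after values were seen. Alternatives changed the scale, PSI limits, variance model, weights, thresholds, read minimum and libraries. Other event types were not analysed here.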

Additional observations from a re-analysis of the deposited data

Results flagged for a closer look

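Of the 20 exons with the largest differences, 3 differed between the mutants by edgeR on reads but not by limma on PSI. Their edgeR adjusted p-values were 0.0021 for *ckc-1* (-25.2 points, all 3 *smg-2* libraries below all 3 *smg-1* libraries), 0.0147 for *sav-1* (24.6 points, all above) and 0.0021 for *lea-1* (-23.1 points, all below).

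In the 72 nt exon of *col-99* all 3 *smg-2* libraries lay above the wild-type mean of 20.8% and all 3 *smg-1* libraries below it, with *smg-2* minus *smg-1* at 21.7 points. This opposition to the wild-type mean was not tested, and the wild-type libraries themselves ran from 16.7% to 28.6%.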

How the results depend on the processing

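The count of exons called between *smg-2* and *smg-1* was 3 with libraries weighted by junction reads, 3 in edgeR and 1 with at least 50 junction reads in every mutant library (of 178 exons), and stayed at 0 under every other alternative run, including each left-out replicate, the replicate block (41 exons at an unadjusted p under 0.05) and an adjusted p under 0.10. The block changed no call of limma between the mutants, and edgeR and the comparisons with wild-type were not refitted with it. Exons without overlap numbered 25 at 50 reads, and 112 to 177 with a replicate left out, where groups of 2 and 3 overlap less by construction. Bounded exons numbered 0 within 5 points and 367 within 20 points, 71 with the block, and 14 to 107 with a replicate left out. The median shift of NMD-sensitive exons was 1.88 points when chosen on *smg-1* alone, a choice added after seeing the data, and 2.43 to 3.91 points with a replicate left out. On the log2 logit scale the median SD was 0.590 in *smg-2* and 0.315 in *smg-1*. Of the 20 largest differences none changed direction, but *lim-8* moved to -11.4 points without *smg-2* replicate 3, *dpy-1* to -11.2 points without *smg-1* replicate 3, *nhr-13* to 9.15 points without *smg-2* replicate 1 and *ckc-1* to -16.7 points with inclusion reads halved. The cause of these changes was not tested. A median under 50 junction reads was found in 95 exons, of which 0 were bounded, and 34 of the 83 exons with 300 or more reads were bounded.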
